A study of Mus musculus with 4 samples.

Results

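The spliced regions described here are the 778 regions of the Dtt list with a splice length of 1 to 5 kb, out of 2533 regions in the list. They were chosen by splice length alone, as the regions with a listed length over 1000 bp and up to 5000 bp, so their lengths are a description and not a finding. They came from 1 library of *Ire1*α heterozygous (Het) mouse embryonic fibroblasts (MEFs) on the Black 6 (B6) background. The cells were treated for 4 hours with 1 mM dithiothreitol (Dtt). This reducing agent breaks disulfide bonds and causes stress of the endoplasmic reticulum (ER). The comparison library of *Ire1*α knockout (KO) MEFs is labelled untreated, while the methods of the study describe the same Dtt treatment for both genotypes. The null allele of this cell line deletes both the kinase and the RNase domain of IRE1α, and the Het cells keep 1 working copy. The Read-Split-Walk (RSW) pipeline listed a region when at least 2 unmapped reads could be split over the same gap in a gene, when no junction known to UCSC lay within 5 bp, and when the KO library had no matching region. The KO columns are empty for every region, so no KO level can be set beside a Het value, and with 1 library no value has a replicate check. The tests cover counting error within this list only, and regions are not replicates of a condition. The list does not give the size of the library. Its regions carry 6436 supporting reads in total, of which 1821 (28.3%) belong to the regions of 1 to 5 kb.

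Introns are removed from pre-mRNA in the nucleus by the spliceosome, which in most cases recognizes GT at the 5′ end of the intron and AG at its 3′ end. The 5′ site continues into a stretch that pairs with the U1 snRNA, and the 3′ site follows a run of C and T bound by U2AF. When a neighbouring GT or AG is used, an exon becomes longer or shorter, and when an exon is passed over, its flanking sites are joined directly. The short intron of *Xbp1* that IRE1α removes during ER stress is cut in the cytosol without the spliceosome and needs neither GT nor AG.

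Regions among those with the most reads are shown first, as the bases around both ends on the mm9 assembly, read in the direction of the gene. Each 5′ window holds 10 bases before the gap and 15 bases inside it, and each 3′ window 20 bases inside the gap and 8 after it. Capitals mark the GT and the AG of the gap and, where GENCODE vM1 has another site within 8 bp, the GT or AG of that site.
*Zfp498* 5′ site, chr5:146044644-146044668, plus strand: aaggcgGTggGTgagaagagggtgt
*Zfp498* 3′ site, chr5:146047157-146047184, plus strand: ggtatggggattctccttAGgttccatg
*Dnttip1* 5′ site, chr2:164583548-164583572, plus strand: tgctggcatgGTGTgagtaggggtt
*Dnttip1* 3′ site, chr2:164584732-164584759, plus strand: tcttttttccttctgagcAGatggaaac
*Nisch* 5′ site, chr14:31998113-31998137, minus strand: tccaaccaagGTaatcacaagcagg
*Nisch* 3′ site, chr14:31995819-31995846, minus strand: aattgagatgcgtctttcAGtcagtggc
*Qrich1* 5′ site, chr9:108419562-108419586, plus strand: acgtcgccggGTgagggctctggtg
*Qrich1* 3′ site, chr9:108421078-108421105, plus strand: ctttgttctatcttcttcAGaatgttag

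*Zfp498* (ENSMUSG00000070420.3), which encodes a zinc finger protein, had the most supporting reads of the class, 12, for a splice length of 2523 bp between the listed boundaries 146044652 and 146047178 on chromosome 5. Its 3′ site is annotated and opens a coding exon, and its 5′ site is a GT that lies 4 bp downstream of the annotated one. *Cenph* (ENSMUSG00000045273.8), a protein of the kinetochore, was supported by 7 reads for 3355 bp, with both sites annotated and a 164 nt exon between them. *Dnttip1* (ENSMUSG00000017299.7), a partner of histone deacetylases, also had 7 reads, for 1194 bp, with the 5′ site 2 bp upstream of the annotated one in a coding exon. *Nisch* (ENSMUSG00000021910.8), which encodes nischarin, a protein that binds integrin, had 6 reads for 2301 bp, and this gap is an intron of a *Nisch* transcript in GENCODE vM1. *Qrich1* (ENSMUSG00000006673.8), which encodes a glutamine-rich nuclear protein, had 6 reads for 1526 bp from an annotated 5′ site to an unannotated AG 64 bp downstream of the annotated 3′ site, with UTR on both sides. *Zfp532* on chromosome 18, another zinc finger gene, had 6 reads for 1376 bp from an annotated 5′ site to an AG 105 bp inside a coding exon.

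Of the remaining regions, 15 had 5 reads each, and all of them had GT-AG ends, as 92.7% of all 778 regions had. In *Ets1*, a transcription factor gene, the gap of 1065 bp ended 152 bp downstream of the annotated 3′ site within a coding exon. In *Pvr*, which encodes a cell adhesion receptor, the gap of 2267 bp ended 224 bp downstream, also in a coding exon. In *Hspg2*, the gene of the basement membrane proteoglycan perlecan, the gap of 1652 bp ended 425 bp upstream of the annotated 3′ site, inside the intron. In *Cbx1*, the gene of a heterochromatin protein, the gap of 4980 bp ended 381 bp upstream, at an exon of a noncoding transcript. These 4 genes kept the annotated 5′ site and used another AG.

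The opposite arrangement, an annotated 3′ site with another GT, was found in 5 of the genes with 5 reads. The unannotated 5′ site lay inside a coding exon in *Ctps*, which encodes CTP synthase (53 bp upstream of the annotated site), and in *Klhdc4* (23 bp upstream). It lay in the intron in *Pfkm*, which encodes the muscle form of phosphofructokinase (49 bp downstream), in *Arhgef19*, a gene for a guanine nucleotide exchange factor (176 bp downstream), and in *Cd200*, which encodes a membrane glycoprotein of the immunoglobulin family (1070 bp downstream). *Klhdc8a*, *Rpl35* and *Tnpo2* had both sites annotated. In *Rpl35*, which encodes a protein of the large ribosomal subunit, the gap of 2966 bp passed over an exon of 82 nt, and in *Klhdc8a* a gap of 1039 bp passed over an exon of 216 nt. In *Tnpo2* (1043 bp), the gene of a nuclear import receptor, no single transcript has both sites. *Rabepk* (4777 bp) and *Serpinb6a* (3922 bp) matched annotated introns, and *Fam150a* (1508 bp) had neither site annotated. *Rpl35* has processed copies elsewhere in the genome and *Serpinb6a* has close relatives, so their values are uncertain.

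The lengths ran from 1014 to 4992 bp, with a median of 2096.5 bp and quartiles of 1434.5 and 3107.25 bp. Shorter lengths were more frequent, with 366 regions up to 2000 bp, 193 between 2000 and 3000 bp, 133 between 3000 and 4000 bp and 86 above 4000 bp. Just inside the lower limit stood *6720463M24Rik*, *Eif3l*, *Serpinh1* and *Unc50*, each with 1014 bp, and *Actn1* and *Mpi* with 998 bp were the nearest below it. At the upper limit, *Ankrd27* with 4984 bp and *Hemk1* with 4992 bp were inside, and *Cox15* with 5005 bp and *Rtf1* with 5011 bp were the next outside.

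**Figure D1:**
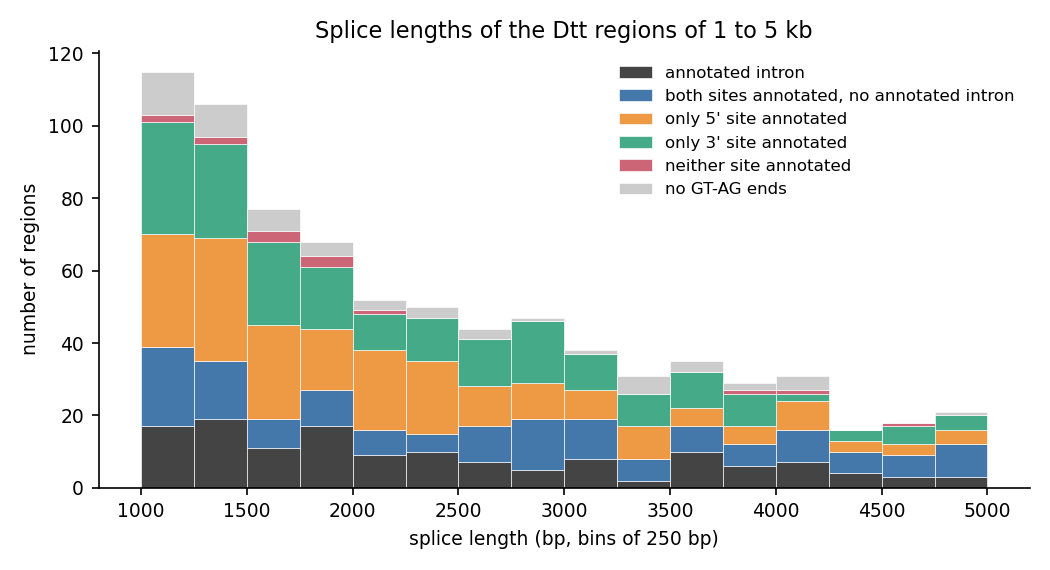
Number of regions (vertical axis) by splice length in bp (horizontal axis, in bins of equal width) for the 778 Dtt regions of 1 to 5 kb, stacked by how their ends match splice sites of GENCODE vM1. The bins up to 2000 bp hold 366 regions and those above 4000 bp hold 86.

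Read support was low. Of the 778 regions, 607 had 2 reads, 112 had 3, 38 had 4 and 21 had 5 or more. Support by 3 or more reads was found for 171 regions (22.0%, 95% Wilson interval 19.2% to 25.02%), beside 23.6% of the whole Dtt list. Among regions of 50 to 1000 bp the share was 25.6% (215 of 840, interval 22.8% to 28.7%), and among regions over 5000 bp it was 24.1% (105 of 436, interval 20.3% to 28.3%). Neither difference passed Fisher's exact test (two-sided, p = 0.0908 and 0.163 after adjustment over 10 tests, p = 0.432 and 0.599 adjusted). With only the best supported region of each gene kept, the share was 166 of 722 against 208 of 754 in the shorter class, but this choice uses the read count itself, drops mostly regions with 2 reads and so raises the share of a class with more regions per gene, and no test is drawn from it. Within the class the share was 19.9% up to 2000 bp, 26.9% between 2000 and 3000 bp, 24.8% between 3000 and 4000 bp and 15.1% above 4000 bp. The median length was 2233 bp for regions with 3 or more reads and 2043 bp for regions with 2.

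GT-AG ends on the strand of the gene were found for 721 of the 778 regions (92.7%, 95% Wilson interval 90.6% to 94.3%), beside 73.9% of the whole Dtt list, in which 479 regions are shorter than 50 bp and 2 of those have GT-AG. The share was higher than for regions of 50 to 1000 bp, 86.9% (730 of 840; odds ratio 1.91, two-sided Fisher's exact test, p = 0.000156, 0.000781 after adjustment over 10 tests). It was lower than for regions over 5000 bp, 96.3% (420 of 436; odds ratio 0.482, Fisher's exact p = 0.0114, 0.0284 adjusted). Because equal bases at both ends let a gap slide, every placement that gives the same joined sequence was read, and 720 regions had exactly 1 such placement with GT-AG. With placements inside the listed boundaries only, 515 regions had GT-AG and the difference from the shorter class did not pass (odds ratio 1.17, Fisher's exact p = 0.146). With at least 3 reads, neither difference passed (164 of 171 in the class, Fisher's exact p = 0.0689 and p = 0.161).

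**Figure D2:**
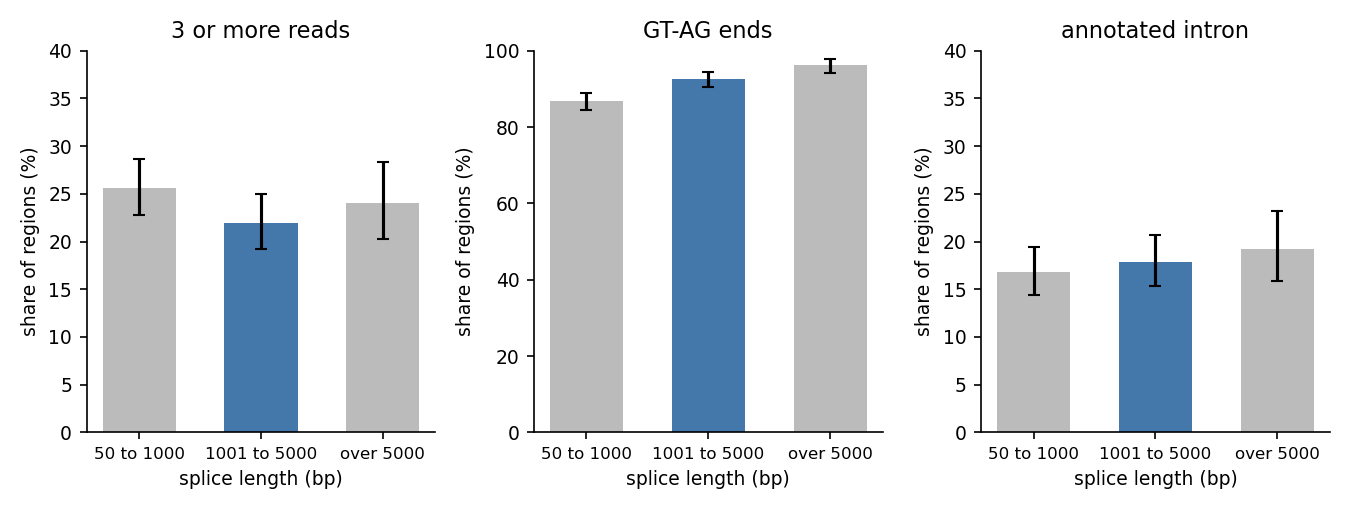
Share of regions in percent (vertical axes) with 3 or more reads, with GT-AG ends and with a match to an annotated intron, for 3 classes of splice length in the Dtt list (blue, the regions of 1 to 5 kb). Error bars are 95% Wilson intervals. The share with GT-AG ends is 86.9%, 92.7% and 96.3% from the shortest to the longest class, and the share with an annotated intron is 16.8%, 17.9% and 19.3%.

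At least 1 end was at an annotated splice site for 707 of the 721 GT-AG regions (98.1%, interval 96.8% to 98.8%). Both ends were annotated, but not as 1 intron, for 152 regions. Only the 5′ site was annotated for 216 and only the 3′ site for 201, and 138 were annotated introns. Support by 3 or more reads was found for 29.7% of the annotated introns, 22.4% of the regions with both sites annotated, 18.98% of those with the 5′ site only and 21.9% of those with the 3′ site only. The median lengths were 2090.5, 2716.5, 1995 and 2097 bp in the same order. The remaining 14 had neither site annotated, among them the *Fam150a* region and regions of *Qrich1*, *Rian* and *Sfxn2* with 3 reads each. Between coding exons on both sides lay 340 of the GT-AG regions (47.2%).

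**Figure D3:**
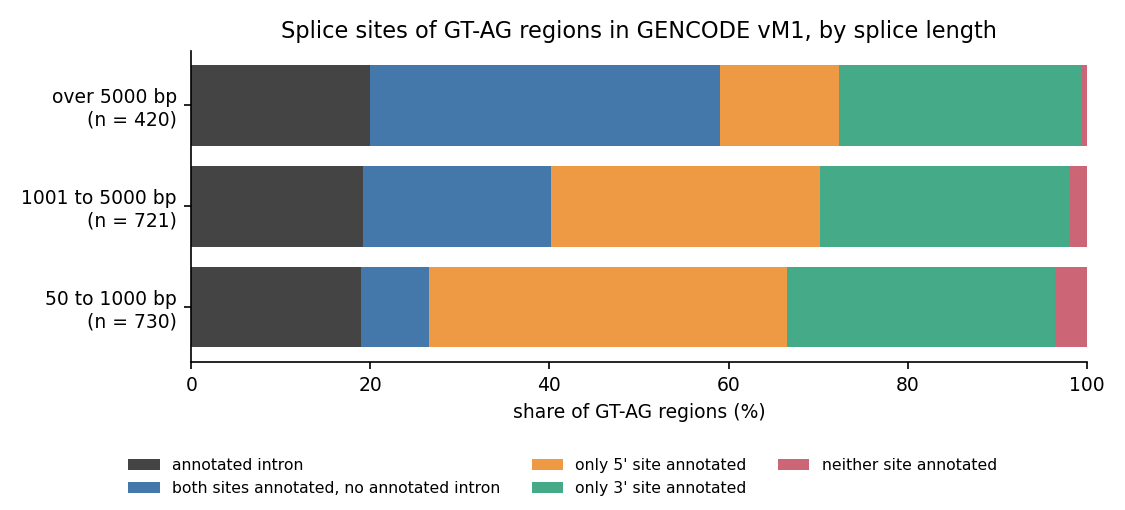
Share of GT-AG regions in percent (horizontal axis) by how their ends match splice sites of GENCODE vM1, for 3 classes of splice length. Regions with both sites annotated but no annotated intron are 7.67%, 21.1% and 39.0% of the GT-AG regions from the shortest to the longest class, a difference that was not tested.

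Of the 417 regions with 1 annotated site, 216 had the 5′ site annotated (51.8%, 95% Wilson interval 47.0% to 56.6%), and an exact binomial test against an even split did not pass (two-sided, p = 0.493, 0.599 adjusted). The split turned to 41 against 44 with at least 3 reads and to 149 against 151 with placements inside the listed boundaries, and neither passed (exact binomial p = 0.828 and p = 0.954). The share was higher than among regions over 5000 bp, where it was 32.9% (56 of 170, interval 26.3% to 40.3%; odds ratio 2.19, two-sided Fisher's exact test, p = 3.75e-05, 0.000375 adjusted), and this difference passed under each of the 5 alternatives tried. Among regions of 50 to 1000 bp it was 57.3% (292 of 510, interval 52.9% to 61.5%), and the difference did not pass (odds ratio 0.802, Fisher's exact p = 0.0979, 0.163 adjusted). With 1 region per gene it was 197 of 386 against 269 of 464 (odds ratio 0.756, Fisher's exact p = 0.0450, not adjusted).

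Where only the 5′ site was annotated, the unannotated 3′ site lay a median of 83.5 bp from the nearest annotated 3′ site that is spliced to the same 5′ site, with quartiles of 17.5 and 701 bp. It lay upstream of it in 119 regions and downstream in 97. The exonic side of the unannotated site was in a coding exon in 90 regions and in an intron in 109. A distance of 3 bp was the most frequent, with 20 regions, of which 16 had the unannotated AG downstream and 4 upstream. Distances of 4 bp (10 regions), 5 bp (5 regions) and 6 bp (4 regions) followed. The authors removed regions within 5 bp of a junction known to UCSC. Counts at distances up to 5 bp hold only regions that passed this filter. In a coding exon, the distance was a multiple of 3 in 36 of 90 regions (40%, 95% Wilson interval 30.5% to 50.3%). A pair of AGs that stands 3 bases apart is known as a tandem acceptor, and a switch between them adds or removes 1 codon in a coding exon.

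The 3′ windows of the 5 such regions with the most reads are printed with both AGs in capitals. The windows are laid on the AG that the gap used, which is the first of the pair in *Sipa1l1* and the second in the other genes.
*Sipa1l1* 3′ site, chr12:83550274-83550301, plus strand: ccttctgtcttccttcccAGcAGtaagg
*Eif5b* 3′ site, chr1:38092821-38092848, plus strand: tttgtttttcctcaaAGaAGgaaatatg
*Papd4* 3′ site, chr13:93954261-93954288, minus strand: tatttgcttgttttcAGgAGaataagcg
*Srrm1* 3′ site, chr4:134893983-134894010, minus strand: agtgctttattccacAGaAGgaggcgtt
*Zfyve21* 3′ site, chr12:113065737-113065764, plus strand: ctcacgtccttctgcAGcAGgcagcacc

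In *Sipa1l1*, which encodes a GTPase activator of the synapse, the region of 2375 bp with 4 reads used the upstream AG and kept 3 bases of the annotated intron. In the other genes the region had 3 reads and used the downstream AG, so that 3 bases of the coding exon were removed. They are *Eif5b*, a translation initiation factor (1892 bp), *Papd4*, a cytoplasmic poly(A) polymerase (1494 bp), *Srrm1*, a coactivator of splicing (2427 bp), and *Zfyve21* (2437 bp). The other regions at 3 bp had 2 reads each, and included *Ywhab*, which encodes an adaptor of phosphorylated proteins, *Eif3l*, a subunit of an initiation factor, *Ewsr1*, an RNA-binding protein, and *Larp1*, which binds mRNAs of ribosomal proteins. Of the GT-AG regions, 55 that are no annotated intron had both ends within 5 bp of 1 GENCODE vM1 intron, although the authors removed regions within 5 bp of a junction known to UCSC. How far the UCSC set lacks these introns was not tested.

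Where only the 3′ site was annotated, the unannotated 5′ site lay at a median of 239 bp, with quartiles of 36 and 2038 bp. It lay within 10 bp in 23 of 201 regions (11.4%), beside 47 of 216 unannotated 3′ sites (21.8%), a difference that was not tested. It lay downstream of the nearest annotated 5′ site in 140 regions and upstream in 61, and its exonic side was in an intron in 129 and in a coding exon in 43. In a coding exon, the distance was a multiple of 3 in 8 of 43 regions (18.6%, interval 9.74% to 32.6%). A distance of 4 bp was the most frequent, with 8 regions, and no region had 3 bp. The filter of the authors on known junctions limits these short distances as well. The 5′ windows of *Zfp498*, shown above, and of the next 3 regions at this distance have a second GT 4 bases from the first, in capitals.
*Med27* 5′ site, chr2:29202562-29202586, plus strand: cctcaaGTagGTactggctgaaagg
*Ndufs3* 5′ site, chr2:90744561-90744585, minus strand: agcgccGTgaGTatgtgcggatggc
*Rnf115* 5′ site, chr3:96589934-96589958, plus strand: tcaggaacaaGTcaGTaagtttact

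Each of these 3 regions had 2 reads. *Med27* is a subunit of the Mediator complex, *Ndufs3* of complex I of the respiratory chain, and *Rnf115* is a ubiquitin ligase. In *Med27* and *Ndufs3* the GT used is the downstream one of the pair, and in *Rnf115* the upstream one.

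**Figure D4:**
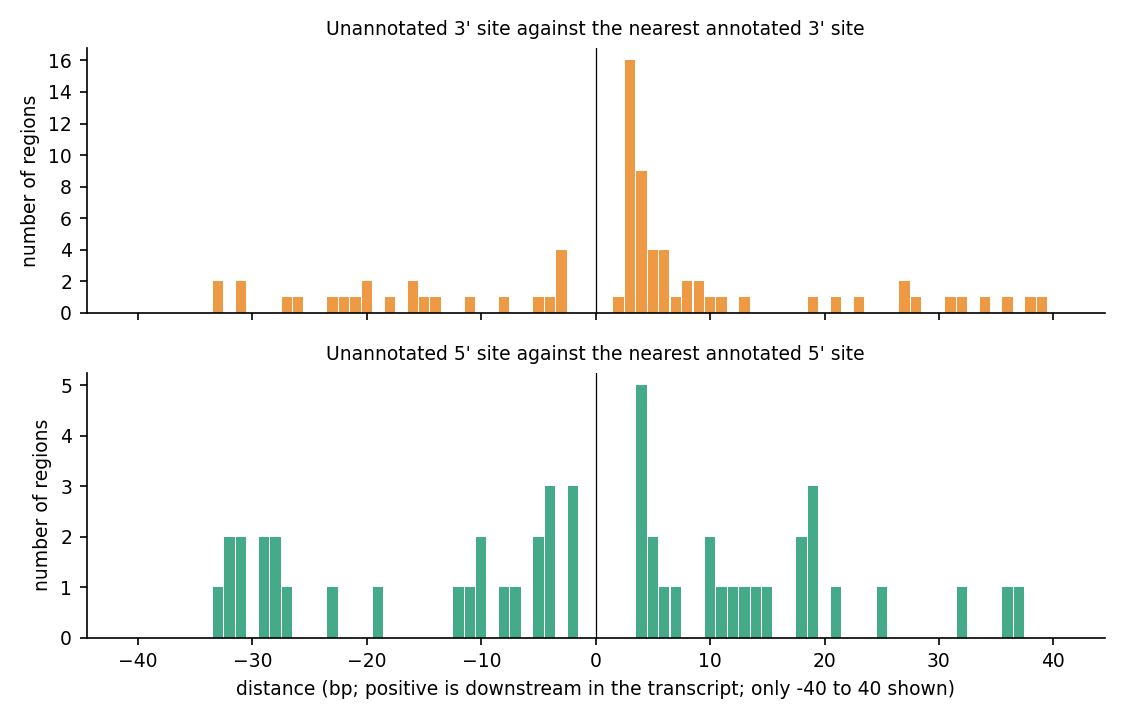
Number of GT-AG regions of 1 to 5 kb (vertical axes) by the distance in bp of the unannotated site from the nearest annotated site joined to the same partner (horizontal axis, positive is downstream in the transcript), for unannotated 3′ sites (top) and 5′ sites (bottom). Distances beyond 40 bp are not shown. The authors had removed regions close to junctions known to UCSC, which limits the counts at the shortest distances. The highest bars are the 16 regions at 3 bp downstream for 3′ sites and the 5 regions at 4 bp downstream for 5′ sites.

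The bases at unannotated sites were set beside those at annotated sites of the same class. At position 5 of the intron, where most 5′ sites carry G, 154 of 215 unannotated 5′ sites had G (71.6%, interval 65.3% to 77.2%) against 408 of 506 annotated sites in the same class (80.6%, interval 77.0% to 83.8%; odds ratio 0.606, two-sided Fisher's exact test, p = 0.0105, 0.0284 adjusted). With at least 3 reads the difference did not pass (33 of 48 against 93 of 116, Fisher's exact p = 0.154). A stood at position 4 in 44.7% of the unannotated and 70.2% of the annotated 5′ sites, and the last exon base was G in 76.3% and 82.4%. At 3′ sites, the base before the AG was C or T in 80% of the 230 unannotated and 94.1% of the 491 annotated sites, and C or T made up a median of 65% and 75% of the 20 bases before the AG. These last shares were not tested.

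Regions with both sites annotated but no annotated intron were mostly skipped exons. For 145 of the 152, a single transcript holds both sites, and the gap passed over 1 exon in 130, 2 in 10, 3 in 4 and 4 exons in 1. Where several transcripts hold both sites, the one with the fewest exons inside the gap was used, so these counts are minimum values. Single skipped exons had a median length of 108 nt. The share of such regions among all regions of the class was 15.3% up to 2000 bp, 18.7% and 22.6% in the next bins and 34.9% above 4000 bp. The skipped length was a multiple of 3, which keeps the reading frame where the exon is coding, in 46 of 145 (31.7%, interval 24.7% to 39.7%). Of all 177725 internal exons of protein-coding transcripts in GENCODE vM1, 40.5% have such a length. The measures are unlike, since the skipped length sums all exons of a gap and some gaps lie in noncoding transcripts. With 3 or more reads the share of skipped lengths turned to the other side of 40.5%, at 16 of 32 (50%, interval 33.6% to 66.4%). None of these shares was tested against the annotation. Besides *Cenph* and *Rpl35*, skipped exons with 4 reads included those of *Dnm1l*, which encodes a GTPase of mitochondrial fission (33 nt), *Tdp2*, a DNA repair phosphodiesterase (138 nt), *Axl*, a receptor tyrosine kinase (226 nt), *Itfg2* (169 nt) and *Hnrnpul2*, an RNA-binding protein (2 exons, 213 nt).

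Annotated introns of GENCODE vM1 were matched by 139 of the 778 regions, GT-AG or not (17.9%, interval 15.3% to 20.7%), beside 14.4% of the whole Dtt list. The share was 16.8% for regions of 50 to 1000 bp and 19.3% for regions over 5000 bp, and neither difference passed Fisher's exact test (p = 0.599 and p = 0.589, both 0.599 adjusted). With at least 3 reads the direction against the shorter class turned, at 42 of 171 against 54 of 215 (odds ratio 0.971, Fisher's exact p = 1). When only protein-coding transcripts counted, 70 regions matched. Besides *Nisch*, *Rabepk* and *Serpinb6a*, the 139 included regions with 4 reads in *Baiap2*, an adaptor of actin signalling, *Cap2*, which binds actin, and *Ddr1*, a collagen receptor.

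The 778 regions carry 722 gene names. A single region was listed for 670 genes, 2 regions for 48 genes, and 3 regions for 4 genes, among them *Qrich1*, *Tdp2* and *Cask*. In 159 of the genes a region of another length class was listed as well. In 9 genes, a pair of regions of 1 to 5 kb shared a listed boundary, 5 of them at the 3′ site (among them *Pgm3*, *Qrich1*, *Scarf2* and *Ttyh3*) and 4 at the 5′ site (*4930455C21Rik*, *Cttn*, *Klhdc4* and *Plscr3*). All 18 regions of these pairs had GT-AG ends, as 92.7% of all 778 regions had. With at least 3 reads for both regions, only 1 of the 9 genes, *Qrich1*, was left.

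In *Qrich1*, the shared 3′ site is the unannotated AG shown above, and the 5′ sites lie 12 bp apart. The annotated one was used by the 1526 bp region with 6 reads and the other by the 1514 bp region with 3 reads. The bases from the GT on are printed again for both, and the downstream site begins with the same 8 bases as the annotated one.
*Qrich1* 5′ site, chr9:108419562-108419586, plus strand: acgtcgccggGTgagggctctggtg
*Qrich1* 5′ site, chr9:108419574-108419598, plus strand: gagggctctgGTgagggcggggacg

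The other *Qrich1* region, of 3571 bp and 2 reads, joined an unannotated 5′ site to an annotated 3′ site. In *Klhdc4*, the unannotated 5′ site in a coding exon was joined to an annotated 3′ site by the 1082 bp region with 5 reads and to an unannotated AG 32 bp farther downstream by the 1114 bp region with 2 reads. In *Plscr3*, which encodes a phospholipid scramblase, an annotated 5′ site was joined to unannotated AGs 129 bp upstream (1507 bp, 3 reads) and 6 bp downstream (1642 bp, 2 reads) of the annotated 3′ site. In the pairs of *4930455C21Rik*, *Cttn*, *Pgm3*, *Scarf2* and *Ttyh3* each region had 2 reads.

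In *Cttn* (ENSMUSG00000031078.9), which encodes cortactin, an actin-binding protein built of tandem repeats, the regions of 1459 and 2932 bp start at the same annotated 5′ site and end at different annotated 3′ sites. In the transcript with the fewest exons inside it, each gap passed over 1 exon of 111 nt, a multiple of 3. These transcripts differ. On the genome, the longer gap also contains the whole shorter gap and its annotated 3′ site.
*Cttn* 5′ site, chr7:151638438-151638462, minus strand: tcccagaaagGTacctgctgcttcc
*Cttn* 3′ site, chr7:151636986-151637013, minus strand: tgtctcccgtggatctccAGactataag
*Cttn* 3′ site, chr7:151635513-151635540, minus strand: tcacctttaccaccttttAGactatgcc

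In *Pgm3*, which encodes an enzyme of amino sugar synthesis, the regions of 1965 and 2904 bp end at the same annotated 3′ site. The longer one passed over a 196 nt exon, and the shorter one began 18 bp downstream of the annotated 5′ site. *Ttyh3* showed the same arrangement, with regions of 1559 and 3590 bp, a skipped exon of 76 nt and an unannotated 5′ site 1360 bp downstream of the annotated one. In *Scarf2*, a gene for a scavenger receptor, both 5′ sites were unannotated, 203 bp (4636 bp region) and 3729 bp (1110 bp region) downstream of the annotated one. In *4930455C21Rik* the regions of 3793 and 3835 bp shared an unannotated 5′ site.

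**Figure D5:**
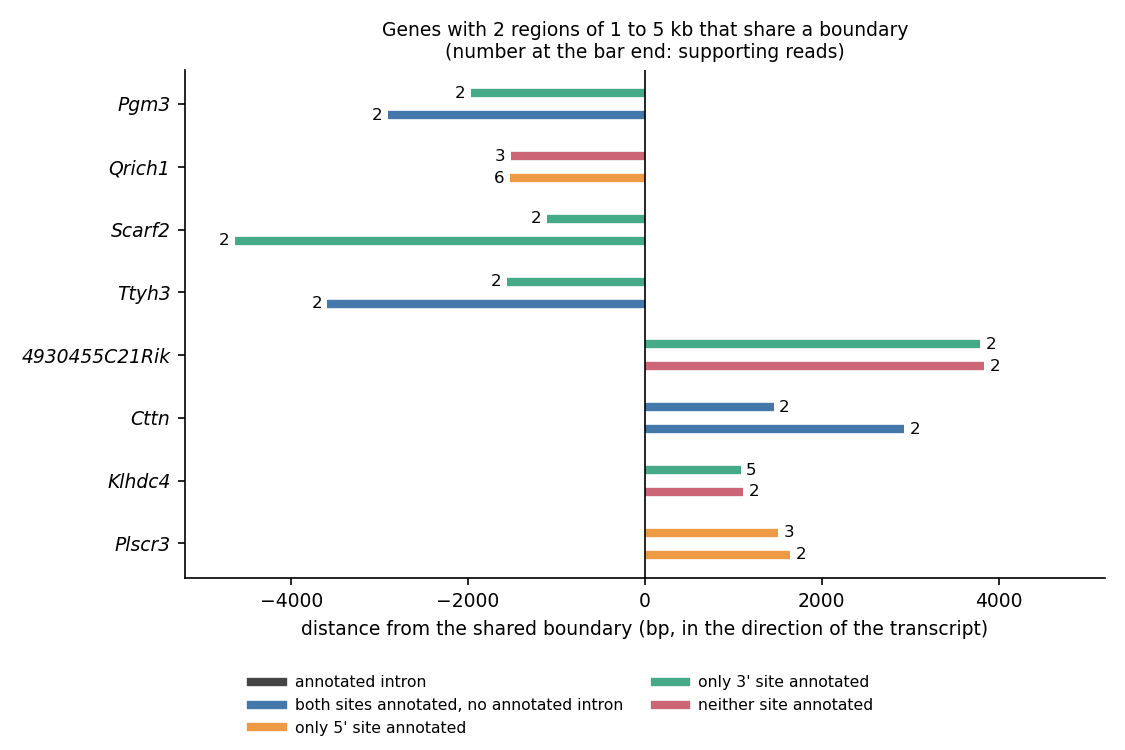
Genes (8 of the 9) with a pair of regions of 1 to 5 kb that share a boundary, drawn as bars from the shared boundary at 0 (horizontal axis, bp in the direction of the transcript), with the number of supporting reads at the bar end and the colour giving the match of the ends to GENCODE vM1. Bars to the left share the 3′ site and bars to the right share the 5′ site, and 6 and 5 reads are the highest values, in *Qrich1* and *Klhdc4*.

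*Tdp2* (ENSMUSG00000035958.2) had 3 regions that skip neighbouring exons. The region of 4759 bp with 4 reads passed over an exon of 138 nt, that of 4086 bp with 3 reads over an exon of 86 nt, and that of 4925 bp with 2 reads over both, 224 nt in all. On the genome, the longest of them begins at the same 5′ site as the 4086 bp region (24923799 on chromosome 13) and ends at the same 3′ site as the 4759 bp region (24928723). Their listed boundaries differ by a few bases, so that *Tdp2* is not among the 9 genes, which become 11 when boundaries within 5 bp count as shared.

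With regions of any length counted, 15 further genes had a region of 1 to 5 kb that shares a boundary with another one. In *Cenph* the 3355 bp region with 7 reads shared its 3′ site with a region of 6630 bp and 2 reads. In *Tdp2* the 4759 bp region with 4 reads shared its 5′ site with a region of 593 bp and 3 reads, an annotated intron. In *Klhdc8a* the 1039 bp region with 5 reads shared its 5′ site with a region of 356 bp and 3 reads, and in *Arhgef19* the 1032 bp region with 5 reads shared its 3′ site with a region of 702 bp and 2 reads. Others are *Anks3*, *Foxk2*, *Inf2*, *Lbh*, *Pigx*, *Ppp1r10*, *Sap30bp*, *Serpina3g*, *Tnc* and *Ythdf2*.

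Of the 22380 protein-coding genes of GENCODE vM1, expressed or not, 715 (3.19%) had a region of 1 to 5 kb. The gene lists below hold genes chosen with results of these data known, so their shares are descriptions beside that value and no test was made. Of a list of 73 genes of ER stress and protein folding, the response that Dtt sets off, 6 (8.22%) had regions of 1 to 5 kb, 8 regions in all. Each of the 8 had 2 reads, as 607 of all 778 regions had, and GT-AG ends, as 92.7% of all 778 had. They were *Pdia4*, a disulfide isomerase (2347 and 4882 bp), *Herpud1*, a component of ER-associated degradation (1775 bp), *Edem2*, which trims glycans of misfolded proteins (2050 bp), *Fkbp7*, an ER prolyl isomerase (1516 bp), *Lman1*, a cargo receptor (3464 bp), and *Nars*, an asparaginyl-tRNA synthetase (1595 and 2765 bp). The *Herpud1* region is an annotated intron. *Pdia4* kept annotated 5′ sites and used AGs 248 bp upstream and 9 bp downstream of the annotated ones, and *Edem2* an AG 8 bp downstream. The list was drawn by hand, and these counts depend on its border. It leaves out other ER folding genes with a region in the class, named here after their values were seen, among them *Ppib*, an ER prolyl isomerase (2588 bp), with 3 reads and both sites annotated, and *Erp44*, an ER thiol oxidoreductase (2573 bp), with 2 reads. It also holds *Nars* but not *Aars*, *Eprs*, *Lars* and *Mars*, further tRNA synthetase genes with a region of 2 reads each. In the list of 27 genes of sterol synthesis and its control, *Lss*, lanosterol synthase (1203 bp), had 3 reads at an annotated intron, and *Idi1*, isopentenyl diphosphate isomerase (1018 bp), had 2 reads and a skipped exon of 93 nt.

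Of 68 genes of extracellular matrix and adhesion, 18 (26.5%) had 20 regions of 1 to 5 kb. Of the 20, 8 had 3 or more reads, beside 22.0% of all 778 regions, and 16 had GT-AG ends, beside 92.7%. *Hspg2* had 5 reads, and *Ddr1* (3757 bp), *Itgb5*, an integrin subunit (2333 bp, an AG 47 bp downstream), and *Fbln2*, the matrix protein fibulin (1438 bp, an AG 4 bp downstream), had 4 each. Of 82 genes of splicing and RNA binding, 14 (17.1%) had 19 regions, 7 with 3 or more reads and 17 with GT-AG ends. *Hdlbp*, which binds mRNA at the ER (1404 bp), *Hnrnpul2* (2716 bp), *Pcbp4* (3561 bp) and *Sf3a1*, a subunit of the U2 snRNP (1724 bp), had 4 reads each. Of 73 genes of the cytoskeleton, 11 (15.1%) had 12 regions, 4 with 3 or more reads and 11 with GT-AG ends, led by *Baiap2* (3273 bp) and *Cap2* (4608 bp) with 4 reads, and *Arpc2* (1188 bp) and *Cap1* (2377 bp) with 3. Of 117 genes of ubiquitin and the proteasome, 9 (7.69%) had 9 regions, each with 2 reads and 7 with GT-AG ends, among them *Herc1*, *Huwe1* and *Ube2l3*. The other two were *Usp39*, with GC-AG ends, and *Psmd8*, with GT-AG on neither strand. The median was 2 reads in each list.

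Of the 57 regions without GT-AG on the strand of the gene, 12 had GC-AG ends, a known minor form of intron, and 10 of these had an annotated 3′ site only. The remaining 45 had other ends. On the opposite strand, 19 of them had GT-AG, and 2 of these matched annotated introns there, under *Msl1* and *Adamts9*. The 3 regions of *Cask* (1272, 2153 and 1464 bp, 2 reads each) were all of this kind. They lie one after the other in introns of *Cask* between the boundaries 13153089 and 13161359 on chromosome X, and GENCODE vM1 has no gene on the opposite strand there. The strand of origin cannot be told from the list. *Gstz1* and *Tacc2*, with 4 reads each, had the most support of the 19. The other 26 regions had GT-AG on neither strand and no more than 3 reads each, the highest in *Atp5j* and *Wbp11*.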

How the data were processed

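RNA-Seq reads of the Dtt-treated *Ire1*α Het MEFs were mapped by the authors with Bowtie to mm9 and junctions of UCSC genes. Unmapped reads were trimmed, split at consecutive positions and mapped again without mismatches, and split reads of the same gene, strand and splice length with nearby boundaries were joined into regions. The deposited counts give, without normalization, how many reads supported a region, with a minimum of 2, and the deposited splice lengths are in bp. The total of the list is not the depth of the library, and counts of 2 to 12 reads give little precision. No molecular identifiers are named in the sources used here, so reads may repeat a molecule, and intervals and tests cover counting error only. The columns for KO are without values, and 0 further per-sample columns were set aside. The list of the thapsigargin experiment was not used here.

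Regions of 1001 to 5000 bp were taken from the list and placed on the NCBIM37 (mm9) sequence and GENCODE vM1. The gene was found by its listed symbol for 759 regions, by another symbol for 9 and by position for 10, and gave the strand. A gap of the listed length was laid between the boundaries and slid over equal bases. Among these placements, an annotated intron came first, then GT-AG, then annotated sites. Distances of unannotated sites were measured to the nearest annotated site joined to the same partner site. Shares were compared with two-sided Fisher's exact tests and an exact binomial test at a threshold of 0.05, with Benjamini-Hochberg adjustment over 10 tests and 95% Wilson intervals. No count model was fitted, since there is 1 library. The alternatives were 1 region per gene, a minimum of 3 or 5 reads, a border of 4 reads, an upper limit of 3000 bp, placements inside the listed boundaries, either strand, GT-AG regions or protein-coding transcripts only, each site counted once, and boundaries within 5 bp or of any length. The steps were tested on simulated data. Tests ran in scipy 1.17.1 and numpy 2.4.6 under Python 3.11.15, sequences were read with pysam 0.24.0, and plots were drawn with matplotlib 3.10.9.

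The regions, gene lists and tests were chosen with earlier results of these data known. Named regions are those with 5 or more reads, genes with 3 or more regions or a shared boundary, all regions of ER stress and sterol genes, up to 4 regions of each other list, and those at the length limits. Regions with sites 3 or 4 bp apart, further skipped exons, the other genes that share boundaries and those without GT-AG were chosen after their values were seen. Some items that this rule names are not reported here.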

Additional observations from a re-analysis of the deposited data

How the results depend on the processing

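Of 55 results under an alternative, 41 had the same direction and fell on the same side of 0.05, or, for counts and shares, stayed within 1.5 times or within the interval of the reported value. With at least 3 reads, 171 regions were left, 21 with at least 5. With at least 3 reads, the odds ratio for GT-AG ends was 2.40 against 50 to 1000 bp (Fisher's exact p = 0.0689) and 0.225 against over 5000 bp (Fisher's exact p = 0.161), and for G at position 5 it was 0.544 (Fisher's exact p = 0.154). These keep the direction and no longer pass, and fewer regions were tested. The odds ratio for annotated introns against 50 to 1000 bp turned to 0.971 (Fisher's exact p = 1), and the ratio of annotated 5′ to 3′ sites to 0.932 (exact binomial p = 0.828). The share of skipped lengths divisible by 3 was 50% (16 of 32), and 1 gene (*Qrich1*) shared a boundary. With placements inside the listed boundaries, the odds ratio for GT-AG ends against 50 to 1000 bp was 1.17 (Fisher's exact p = 0.146) and the ratio of 5′ to 3′ sites was 0.987 (exact binomial p = 0.954). With 1 region per gene, the odds ratio against 50 to 1000 bp was 0.756 for the annotated 5′ site (Fisher's exact p = 0.0450), now past the threshold before adjustment. It was 0.784 for 3 or more reads, where the choice of region uses the read count that is compared, so its test is void. With regions of any length, 24 genes shared a boundary. The causes were not tested. No paired analysis was possible because the list rests on 1 library. Regions with 2 reads limit what the depth can show.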
